A study of Homo sapiens with 30 samples.

Results

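The comparison described here is between MDA-MB-231 lineage 35 and lineage 45 after both had lived in a shared culture, across all genes of 6 RNA-seq libraries, 3 for each lineage. These 6 libraries are a part of a series of 30, and they were chosen by their labels as the co-culture columns of lineages 35 and 45 in the deposited count table of lineages 22, 35 and 45. MDA-MB-231 is a human cell line from a metastatic breast cancer that lacks estrogen and progesterone receptors, and the lineages are wild-type populations derived from it, called clones in the series' design. Cells of both groups were kept for 15 days in a co-culture of 6 members in RPMI-1640 with 10% dialyzed fetal bovine serum and 2 mM L-glutamine, passaged through a bottleneck every 3 days, without any further treatment. Lineages 22, 35 and 45 were then sorted apart by FACS, RNA was extracted with the same kit, and 500 ng went into a stranded mRNA library. The signal used for sorting and the other members of the culture are not given in the sources used here. The table holds 18 libraries in 6 groups of 3: each lineage from co-culture and each grown alone for about 24 h, which is called isolation below. The series' title places the work in a study of cooperation between clones through exchanged soluble metabolites, so the comparison asks how much 2 lineages differ once they share a medium. Nothing in the labels ties the 3 replicates of a lineage to separate cultures, so the p-values rest on the spread between these libraries alone, which may be technical.

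Clonal lineages of one tumor line start from single cells and inherit the copy number, DNA methylation and expression state of those cells. When such lineages share a medium they also share its nutrients, secreted growth factors and waste, so genes that follow amino acid supply, oxygen or growth factor signals can be set by the common environment. Genes that lie together on a chromosome tend to move together where copy number differs between lineages.

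The 6 libraries held 35.2 to 35.9 M counts each. Of 26475 genes in the table, 14570 were expressed highly enough to be tested. The first library of each lineage stood apart: the chi-square statistic per gene between replicate 1 and the others was 30.1 to 32.2 in lineage 35 and 35.4 to 44.6 in lineage 45, against 10.0 and 18.4 between replicates 2 and 3. Counts are therefore given again without both first replicates. Among the 9 co-culture libraries, the first principal component (35.6% of variance) held lineage 35 at -29.9 to -23, lineage 45 at -17.1 to -4.56 and lineage 22 at 32.1 to 48.2. The second component (21.1%) separated lineage 35, at -26.5 to -14.8, from lineage 45, at 17.7 to 37.0.

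The label of lineage 35 was checked first, with genes that were at least 8-fold higher in one isolated lineage than in both others. The co-culture libraries labelled 35 lacked nearly all of the marker RNA of isolated lineage 35. Its 9 marker genes had a median of 24.2 CPM (counts scaled by library size and TMM factor) in isolated 35 cells, 0.320 CPM in the co-culture libraries labelled 35 and 0.409 CPM in those labelled 45. THBS2, which encodes the matrix protein thrombospondin 2, was at 71.8 CPM in isolated lineage 35 and at 0.0191 CPM in the co-culture libraries with that label. CCBE1, a secreted factor of lymphatic growth, was at 35.8 CPM alone and 0.986 CPM after co-culture. Between the co-culture groups, none of the 9 was higher in the libraries labelled 35 in edgeR, in DESeq2 or at an unadjusted p under 0.05. TP73-AS1 and the G-protein regulator RGS4 were lower. Summed over the 9 genes, the 35 libraries held 5.72 to 7.08 CPM and the 45 libraries 9.57 to 10.6 CPM. The co-culture libraries labelled 35 also correlated less with isolated 35 (mean r = 0.924 of log2 CPM) than with isolated 45 (0.964) or isolated 22 (0.950). The libraries labelled 45 correlated best with isolated 45 (0.970, against 0.951 with 22 and 0.928 with 35). Every statement below on lineage 35 is therefore about the co-culture libraries labelled 35, and whether they hold the cells that were sequenced in isolation was not tested.

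**Figure D1:**
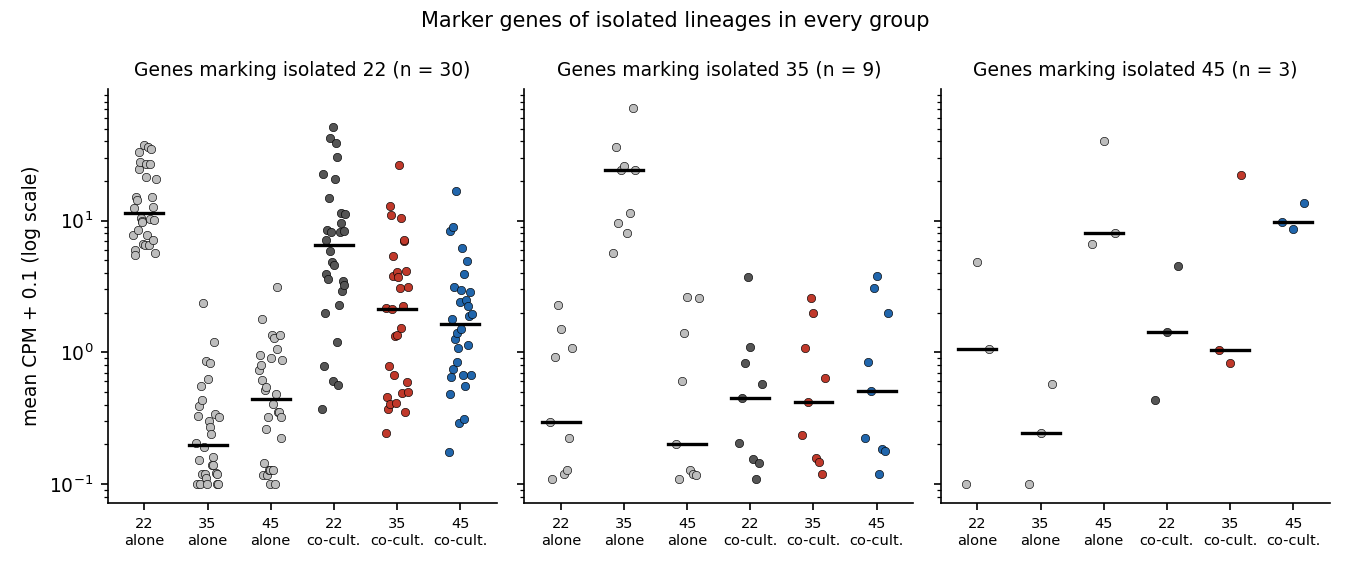
Mean CPM plus 0.1 (log axis) of genes that mark isolated lineage 22, 35 or 45, in each of the 6 groups. Each point is 1 gene (mean of 3 libraries), black bars are medians, grey points are isolated groups and coloured points co-culture groups. The 9 markers of isolated 35 have medians of 0.347, 0.320 and 0.409 CPM in lineages 22, 35 and 45 from co-culture, and the highest of them there is at 3.7 CPM.

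Markers of isolated lineage 45 gave a mixed result. All 3 of them passed the test. CST1 and COX7B2 were lower in the libraries labelled 35, and SEMA3E, which encodes a secreted guidance cue, was higher there (22.1 ± 0.721 against 13.5 ± 0.914 CPM, 1.63-fold). Of the 30 markers of isolated lineage 22, 11 were higher in the 35 libraries, 5 were lower and 14 were not called, against 6.42% higher and 6.28% lower of all genes tested. Their summed level was 112 to 121 CPM in the 35 libraries and 68.4 to 92.8 CPM in the 45 libraries, so the groups did not overlap. The median marker of isolated 22 was at 6.38 CPM in lineage 22 from co-culture, 2.04 CPM in the 35 libraries and 1.54 CPM in the 45 libraries. Some of these genes were higher in the 35 libraries than in lineage 22 from co-culture, such as FAM133A (10.9 against 3.49 CPM) and EMB (12.9 against 8.35 CPM). Others were lower there, such as NLRP2 (26.4 against 38.6 CPM) and ROBO1 (10.4 against 30.6 CPM). Markers of isolated 22 are among several of the differences below, and the part of lineage 22 RNA in them was not tested.

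Markers of other cells that a breast tumor line could be mixed with were at 0 in part. CD3E and ITGAM were at 0 in 5 of 6 libraries, and DCN and HBB at 0 in all 6. The 6 leukocyte markers summed to 67.4 to 73.4 CPM in the 35 libraries and 91.3 to 99.6 CPM in the 45 libraries, mostly LAPTM5 (67.8 ± 2.99 against 95.4 ± 4.37 CPM). Of the 3 leukocyte markers tested, CD14 was higher in the 35 libraries (1.8-fold, log2 0.85 ± 0.25), a call that was lost without replicate 1 or 3 of lineage 35 and without replicate 1 or 2 of lineage 45. In DESeq2 and in the fits of the 6 compared or the 9 co-culture libraries alone no leukocyte marker was higher and 1 was lower. Fibroblast markers summed to 9.48 to 10.5 CPM against 14.2 to 14.8 CPM, with PDGFRB lower (1.72-fold). Endothelial and erythroid markers summed to 125.6 to 137.0 CPM against 128.3 to 142.1 CPM, mostly ESAM (125 ± 5.71 against 129 ± 6.5 CPM), a junction gene that was not called, with KDR lower (1.6-fold). Of 16 MDA-MB-231 identity genes, which include genes the line lacks, ESR1 and CDKN2A were at 0 in all 6 libraries. Of the 12 that could be tested 4 (33.3%) were higher in the 35 libraries, against 6.42% of all genes tested. These were the caveolar coat gene CAV1 (1.49-fold), the intermediate filament gene VIM (1.25-fold), GATA3 (1.5-fold) and CDH1, which was low in both groups. As the list mixes genes the line has and genes it lacks, a higher call is not by itself a mark of identity. No identity gene was lower in edgeR, with 2 at an unadjusted p under 0.05 and 1 in DESeq2.

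Lineages 35 and 45 from co-culture differed at 1851 of 14570 genes, which is 12.7% of those tested. Of these, 936 genes (6.42%) were higher in lineage 35 and 915 (6.28%) lower. Most of the differences were small: the median called gene differed 1.48-fold, and 423 genes, or 22.9% of those called, differed at least 2-fold. The larger differences lay mostly on the lower side, with 297 genes (2.04% of those tested) at least 2-fold lower and 126 (0.865%) at least 2-fold higher. The 3 libraries of one lineage did not overlap the 3 of the other at 3863 genes (26.5%), and at 1808 genes that were also called (12.4%). The median log2 difference over all genes was 0.003. Lineage 22 differed more from either: 4530 genes (31.1%) separated 35 from 22, and 3669 (25.2%) separated 45 from 22. Calls were made with edgeR's quasi-likelihood test at a Benjamini-Hochberg adjusted p under 0.05. Without both first replicates 552 genes were higher and 592 lower, and without replicate 3 of lineage 35 alone 613 and 678. Among genes at 5 CPM or more in at least 3 libraries, 44 were at least 2-fold higher and 119 at least 2-fold lower. Tested against a difference of 1.5-fold, 70 genes were higher and 186 lower. In bulk RNA, fewer cells with a transcript and less of it in each cell cannot be told apart.

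Among the genes with the largest excess in lineage 35, UGT8 came first. It encodes the ceramide galactosyltransferase that makes galactosylceramide, a membrane sphingolipid. UGT8 (chromosome 4, 114598455 to 114678224, GRCh38) was at 21.2, 18.4 and 19.4 CPM in the 3 libraries of lineage 35 and at 2.69, 5.59 and 4.3 CPM in those of lineage 45. The difference was 4.69-fold (log2 2.23 ± 0.17, adjusted p = 6.7e-08). The lineages did not overlap, a condition for entry among the largest differences. PTGFRN, a membrane protein that lowers ligand binding of a prostaglandin receptor, stood at the other end. PTGFRN (chromosome 1, 116910057 to 116990358) was at 0.536, 0.773 and 0.979 CPM in lineage 35 and 7.81, 8.07 and 8.52 CPM in lineage 45, 10.6-fold lower (log2 -3.41 ± 0.24, adjusted p = 3.3e-08). Promoter windows of both are shown because they are the genes with the smallest adjusted p among the 10 largest differences in their direction. The windows run from 250 bases before to 50 bases after the first start that RefSeq lists (GRCh38.p14), with CG dinucleotides in capitals, the sites at which DNA methylation can act. UGT8 lies on the plus strand at chr4:114598152-114598451 and PTGFRN on the plus strand at chr1:116909666-116909965.
UGT8: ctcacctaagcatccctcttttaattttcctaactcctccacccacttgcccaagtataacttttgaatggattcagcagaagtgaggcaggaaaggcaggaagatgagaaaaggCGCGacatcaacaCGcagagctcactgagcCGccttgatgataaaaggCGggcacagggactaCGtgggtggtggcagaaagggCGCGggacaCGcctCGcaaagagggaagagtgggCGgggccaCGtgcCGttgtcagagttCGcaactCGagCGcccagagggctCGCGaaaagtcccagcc
PTGFRN: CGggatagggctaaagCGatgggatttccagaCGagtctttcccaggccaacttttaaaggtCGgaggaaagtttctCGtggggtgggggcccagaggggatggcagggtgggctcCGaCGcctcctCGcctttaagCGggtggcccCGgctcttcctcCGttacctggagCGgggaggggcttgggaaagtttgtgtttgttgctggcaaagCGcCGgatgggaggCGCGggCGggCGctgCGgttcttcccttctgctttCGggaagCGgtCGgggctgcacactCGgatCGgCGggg
The UGT8 window holds 18 CG dinucleotides, and 44.5% of all RefSeq windows hold at least as many. The PTGFRN window holds 25, and 32.1% hold at least as many. Methylation was not measured in these libraries.

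The other genes with the largest excess in lineage 35 have varied roles. QPCT, which forms the pyroglutamate cap of peptides, was at 6.35, 4.38 and 6.19 CPM in lineage 35 and 1.16, 1.11 and 1.56 CPM in lineage 45 (4.41-fold). TNS4, a tensin of focal adhesions, was the most abundant of the group. It was at 382, 261 and 363 CPM against 65.7, 75.4 and 113 CPM (3.96-fold, log2 1.99 ± 0.20). HCLS1, a cortactin relative that binds actin in blood cells, differed 3.82-fold (8.49 ± 1.19 against 2.22 ± 0.635 CPM), and PABPC4L, a poly(A)-binding protein gene, differed 3.66-fold (5.04 ± 0.226 against 1.38 ± 0.181 CPM). Of the 10 genes, 4 also mark isolated lineage 22. These were NLRP2, a nucleotide-binding receptor gene of the innate immune system (4.35-fold), the receptor gene GPR158 (4.01-fold), the X-linked FAM133A (3.61-fold) and SPN, which encodes the leukocyte sialoglycoprotein CD43 (3.31-fold). NLRP2 was at 30.8, 23 and 25.4 CPM in lineage 35 and 3.48, 7.26 and 7.47 CPM in lineage 45. Every library of lineage 35 lay above every library of lineage 45 for each of these genes, as the rule that named them required. LINC01296 (4.04-fold) has near-identical copies in the genome, so its count is uncertain.

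The genes with the largest deficit in lineage 35 differed by up to 11.5-fold. CST1, a secreted inhibitor of cysteine proteases, was at 0.328, 0.802 and 1.07 CPM in lineage 35 and 6.87, 5.62 and 12.9 CPM in lineage 45 (log2 -3.52 ± 0.46, adjusted p = 1.3e-04). Its neighbour and close relative CST4 was 6.86-fold lower (0.887 ± 0.497 against 6.13 ± 2.23 CPM), and reads may be split between these paralogs. COX7B2, an isoform gene of a cytochrome c oxidase subunit, was at 0.507, 1.4 and 0.922 CPM against 13.9, 7.28 and 7.75 CPM (10.1-fold lower). CST1 and COX7B2 both mark isolated lineage 45. GAL, which encodes the neuropeptide galanin, was at 0.864, 2.32 and 1.76 CPM in lineage 35 and 12.5, 10.9 and 11.7 CPM in lineage 45 (7.07-fold lower). MMP1, the interstitial collagenase, was at 2.09, 4.47 and 4.69 CPM and 25.6, 23.8 and 18.8 CPM (6.04-fold lower). In all of these genes the first library of lineage 35 was the lowest of its group. IGSF3, the immunoglobulin superfamily gene beside PTGFRN on chromosome 1, was 6.5-fold lower (2.98 ± 1.31 against 19.4 ± 2.62 CPM). CYFIP2, a subunit of the WAVE actin regulator, was 5.81-fold lower, and the collagen-binding proteoglycan gene FMOD 5.29-fold. MYH10, the non-muscle myosin IIB heavy chain, was the most abundant gene of this group, at 13.4, 28.1 and 21.4 CPM against 77.1, 115 and 108 CPM (4.77-fold lower). All 20 kept their call in each alternative fit that was run.

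**Figure D2:**
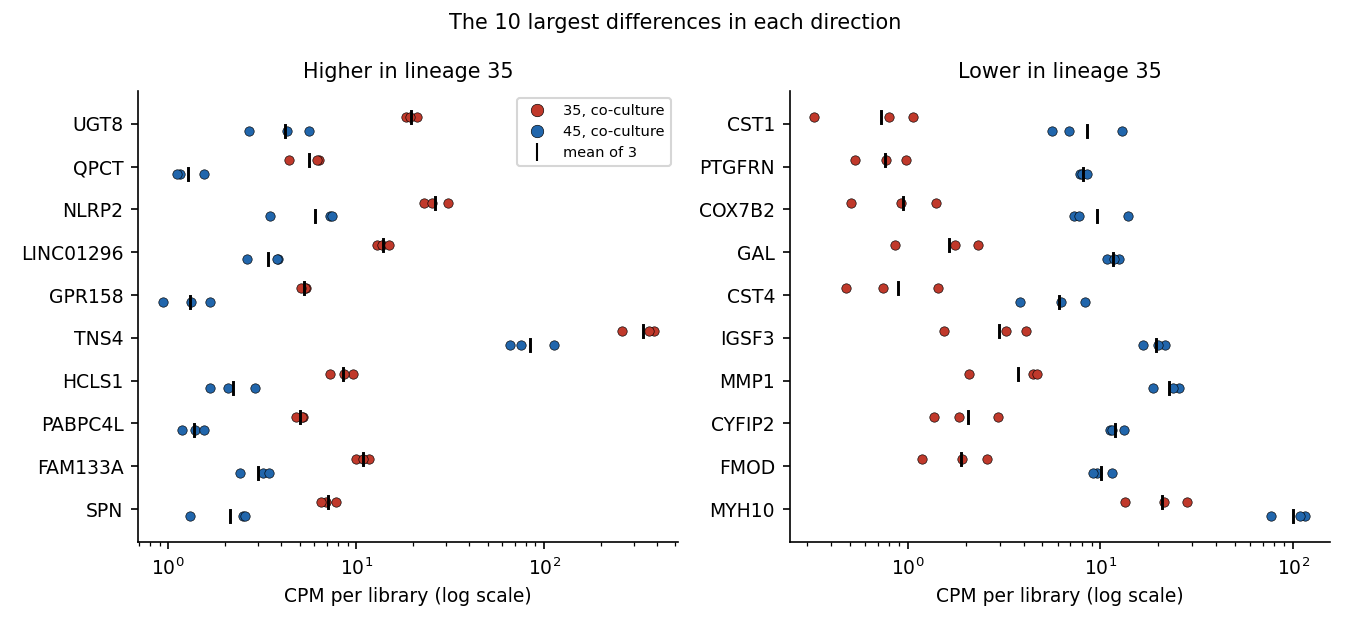
CPM in each of the 6 co-culture libraries (log axis) of the 10 genes with the largest difference in each direction. Red points are lineage 35, blue points lineage 45 and black ticks the mean of 3. The 2 lineages do not overlap for any of the 20 genes, which was a condition of their choice.

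No tested gene was at or under 3 summed counts in one lineage and above 5 CPM in the other. Genes that met this at 1 CPM were SULT1A3, SULT1A4, SLX1A-SULT1A3, ULK4P1 and ULK4P2, which are near-identical copies whose reads can be assigned to either, so they are reported as uncertain.

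The 47 gene lists described next hold 872 symbols, of which 790 were tested. In all lists together 89 members were higher and 65 lower in lineage 35, or 19.5% called, against 12.7% of all genes. The median log2 difference of list members was 0.01. Without replicate 1 of lineage 35 the higher count was 54, and with any 1 library left out it ran from there to 80. Of the named genes, those that lost their call in at least 5 alternative fits, the test against 1.5-fold aside, were AJUBA, CD14, CD74, COBL, CSF3, EGFR, KLF4, MCM5, MTHFD1, NDUFC1, SAT1, SLC1A5, SPDEF, SPRY2, TGFBI, THBD, TM7SF2 and VIM. Direction varied from list to list, and lists with calls near 6% on each side do not stand above the background.

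**Figure D3:**
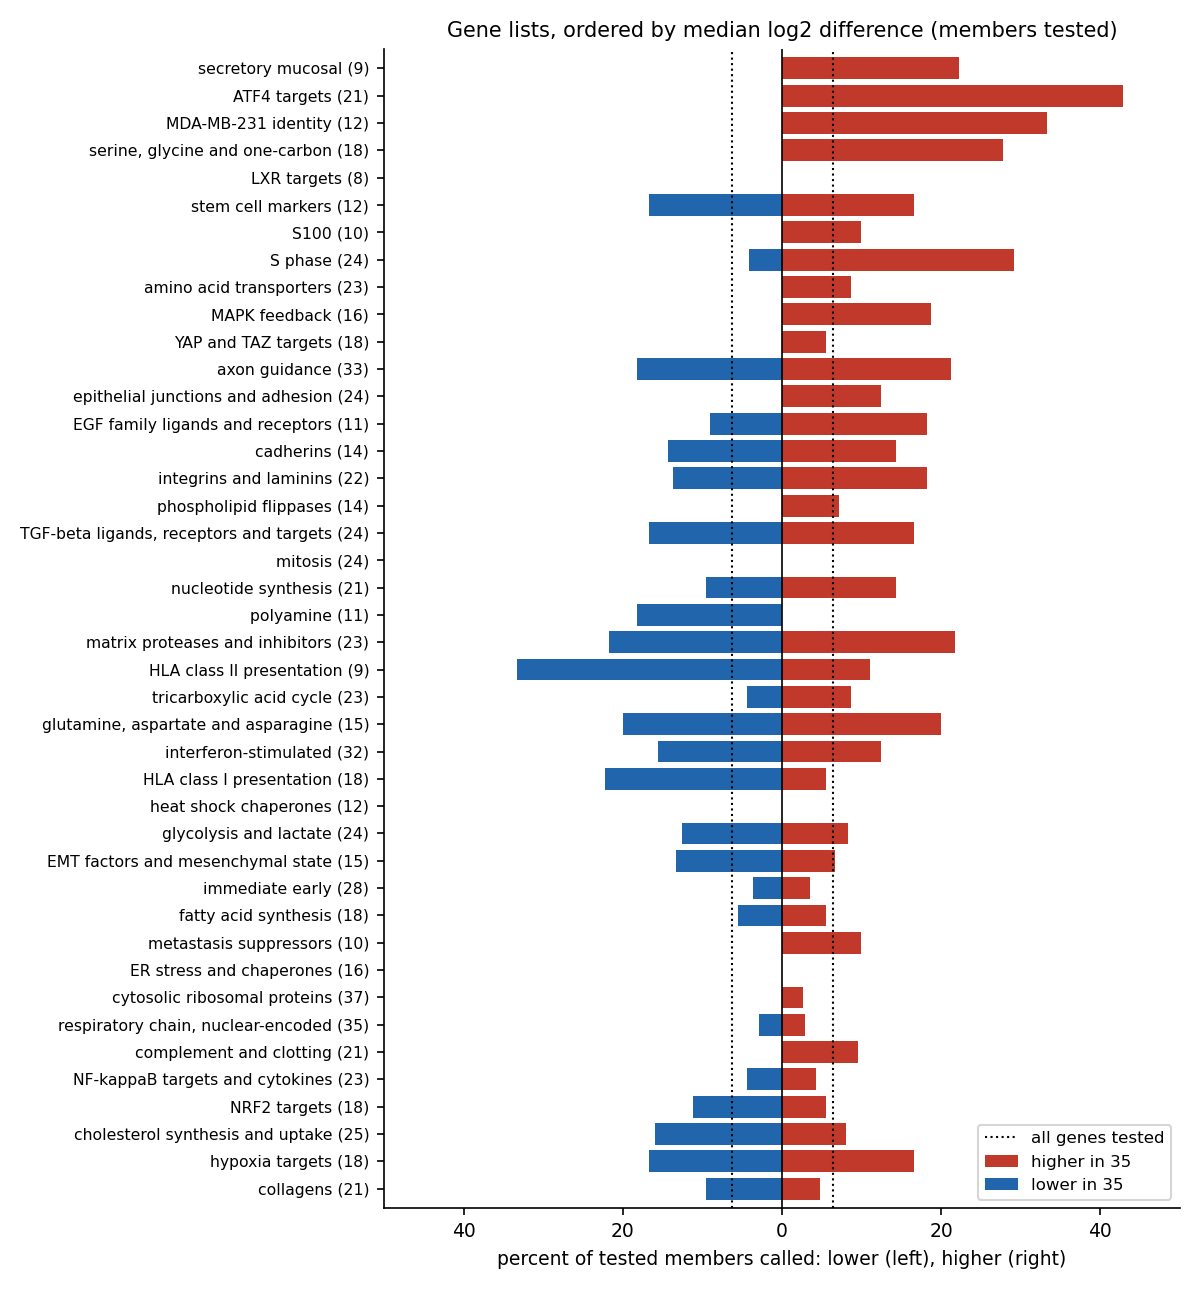
Percent of the tested members of each gene list (at least 8 tested) that were called higher (red, right) or lower (blue, left) in lineage 35 from co-culture, ordered by the list's median log2 difference. Dotted lines mark the shares over all genes tested, 6.42% higher and 6.28% lower. ATF4 targets, with 9 of 21 higher, reach farthest to the right.

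Amino acid stress genes were higher in lineage 35 where they were called. ATF4 is the transcription factor that cells use when amino acids run short or the endoplasmic reticulum is stressed, and it drives amino acid synthesis, transport and tRNA charging. Of 21 ATF4 targets tested, 9 were higher and none lower (edgeR; 12 higher and none lower at an unadjusted p under 0.05, and 9 higher in DESeq2), with a list median of log2 0.31. NUPR1, a small stress-induced chromatin protein, was at 3.31, 2.89 and 2.71 CPM in lineage 35 and 1.02, 1.38 and 1.22 CPM in lineage 45 (2.46-fold, adjusted p = 6.2e-04). ASNS, the asparagine synthetase, was at 139, 124 and 102 CPM against 91.5, 74.5 and 65.1 CPM (1.58-fold). The charging enzymes GARS for glycine (1.38-fold), MARS for methionine (1.24-fold) and WARS for tryptophan (1.22-fold) were also higher. So were the transcription factor genes JDP2 (1.6-fold) and CEBPG (1.24-fold), the secreted hormone gene STC2 (1.76-fold) and VEGFA (1.27-fold). ATF4 itself was at 451 ± 31 against 410.1 ± 16.6 CPM and DDIT3, the stress factor CHOP, at 28.7 ± 3.7 against 30.6 ± 4.26 CPM. Neither passed the test. The count was 4 without the first library of lineage 35, 5 without its second or without the first of lineage 45, and 3 without both first libraries.

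Of the 3 serine synthesis genes, PHGDH and PSPH were higher and PSAT1 was not called. Cells make serine from a glycolytic intermediate through PHGDH, PSAT1 and PSPH, and pass its carbon to folate for nucleotide synthesis. PHGDH (chromosome 1, 119648411 to 119744226) catalyses the entry step. It was at 30.6, 23.3 and 19.9 CPM in lineage 35 and 7.61, 11.3 and 8.41 CPM in lineage 45, a 2.71-fold difference (log2 1.44 ± 0.17, adjusted p = 1.3e-05) without overlap. PSPH, the last step, was 1.41-fold higher (39.6 ± 3.85 against 28.1 ± 5.17 CPM). PSAT1, the step between them, was at 279.8 ± 18.3 against 215 ± 28.8 CPM and missed the threshold (adjusted p = 0.0813). Of 18 serine, glycine and one-carbon genes, 5 were higher and none lower (edgeR; 7 higher and 1 lower at an unadjusted p under 0.05, 4 and none in DESeq2). The folate enzymes MTHFD1 (1.16-fold) and ALDH1L2 (2.15-fold) were among the 5. MTHFD1 lost its call when any 1 library was left out, with an adjusted p of up to 0.199. With any 1 library left out, 3 or 4 were higher. Of 23 amino acid transporter genes the glycine carrier SLC6A9 (1.53-fold) and the glutamine carrier SLC1A5 (1.24-fold) were higher and none lower (5 and none at an unadjusted p under 0.05, and 3 and none in DESeq2). In edgeR 8.70% of the transporter genes were thus called, fewer than the 12.7% of all genes tested. The SLC1A5 call was lost in 10 alternative fits, among them those without replicate 1 or 2 of lineage 35 or replicate 1 or 3 of lineage 45, with an adjusted p of up to 0.5.

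Glutamine, aspartate and asparagine genes split evenly, 3 higher and 3 lower of 15. ASS1, which joins citrulline and aspartate in arginine synthesis, was at 9.84, 11.3 and 10.5 CPM in lineage 35 and 20.5, 16.7 and 19.1 CPM in lineage 45 (1.78-fold lower, adjusted p = 1.0e-04). Proline synthesis was split within the pathway: ALDH18A1, its first enzyme, was 1.24-fold lower and PYCR1, its last, 1.33-fold higher. ASNS and the transaminase GPT2 (1.29-fold) were higher, and the glutamine synthetase GLUL was lower (1.22-fold). With 1 library left out the counts were 0 to 3 higher, lowest without the first of lineage 35, and 2 or 3 lower.

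Carbon metabolism differed at few genes. Of 24 glycolysis and lactate genes 2 were higher and 3 lower. The 2 major glucose transporters went opposite ways, SLC2A1 higher (529 ± 62.1 against 384 ± 19.7 CPM, 1.38-fold) and SLC2A3 lower (33.4 ± 2.33 against 44.3 ± 2.7 CPM, 1.33-fold). PGK1, an X-linked glycolytic kinase, was 1.37-fold higher, the enolase ENO2 1.41-fold lower and the regulator PFKFB3 1.22-fold lower. Of 23 tricarboxylic acid cycle genes the X-linked IDH3G (1.44-fold) and the mitochondrial carboxykinase PCK2 (1.33-fold) were higher, and SDHA (1.3-fold) was lower. Of 35 nuclear-encoded respiratory chain genes NDUFC1 was higher (1.36-fold) and COX7A2 lower (1.43-fold). Against 12.7% of all genes, 20.8% of the glycolysis and lactate genes, 13.0% of the cycle genes and 5.71% of the respiratory chain genes were called. NDUFC1 lost its call in 10 alternative fits, with an adjusted p of up to 0.205. Of 18 NRF2 targets 1 was higher and 2 were lower, AKR1C3 (2.26-fold), which reduces steroids, and ME1 (1.34-fold).

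Sterol synthesis genes showed small differences. The squalene and lanosterol enzymes FDFT1 (1.33-fold), SQLE (1.2-fold), LSS (1.31-fold) and TM7SF2 (1.53-fold) were lower, and the X-linked NSDHL was higher (1.27-fold). In all, 2 of 25 were higher and 4 lower. The lower count ran from 0, without replicate 2 of lineage 35, to 8, without replicate 2 of lineage 45. Of 18 fatty acid genes the X-linked ACSL4, which activates arachidonic acid, was higher (1.45-fold) and ME1 lower, or 11.1% called against 12.7% of all genes tested. FASN, the fatty acid synthase, was at 894 ± 145 against 1006 ± 142 CPM and was not called. Of 8 LXR targets none was called in edgeR or in DESeq2, with 1 higher at an unadjusted p under 0.05.

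Of 24 S phase genes 7 were higher by small amounts, 1 was lower and 16 were not called. The helicase subunits MCM6 (162 ± 13.5 against 129 ± 6.41 CPM, 1.26-fold), MCM5 (1.23-fold) and MCM7 (1.23-fold), the sliding clamp PCNA (1.18-fold), the clamp loader RFC2 (1.18-fold), the maintenance methylation factor UHRF1 (1.25-fold) and DTL (1.22-fold) were higher. CCNE1, the cyclin that opens S phase, was lower (13.5 ± 0.463 against 17.2 ± 1.14 CPM, 1.27-fold). The higher count fell from 7 to 1 without the first library of lineage 35, without both first libraries and in the fit of the 6 compared libraries alone. Of 24 mitosis genes none was called in edgeR or DESeq2, with 1 higher at an unadjusted p under 0.05. MKI67 was at 655 ± 209 against 661 ± 181 CPM. Of 37 cytosolic ribosomal protein genes only the X-linked RPL10 was called, higher (1.5-fold).

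Nucleotide synthesis calls were mostly on the X chromosome. PRPS1 and PRPS2 encode isoenzymes that make phosphoribosyl pyrophosphate, the sugar donor for nucleotides. PRPS1, on the long arm, was higher (149, 126 and 126 CPM against 103, 106 and 94.3 CPM, 1.32-fold). PRPS2, near the tip of the short arm, was lower (42.6, 44.7 and 50.3 CPM against 90.5, 76.1 and 67 CPM, 1.7-fold). The isoenzymes of CTP synthase showed the same split, with the X-linked CTPS2 lower (10.4, 12.9 and 11.7 CPM against 22.8, 20.5 and 20.6 CPM, 1.82-fold) and CTPS1 on chromosome 1 higher (274, 266 and 257 CPM against 149, 176 and 179 CPM, 1.58-fold). The salvage enzyme gene HPRT1, on X, was higher (1.4-fold). Of 21 nucleotide genes 3 were higher and 2 lower. Both called polyamine genes of 11, the spermine synthase SMS (1.83-fold lower) and the acetyltransferase SAT1 (1.47-fold lower), also lie on the short arm of X. No polyamine gene was higher in edgeR or DESeq2, with 1 at an unadjusted p under 0.05.

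Antigen presentation genes were lower where they were called, with 2 exceptions. HLA class II molecules present peptides to helper T cells and are made mainly by specialised immune cells. HLA-DRB1 was at 0.209, 0.315 and 0.346 CPM in lineage 35 and 2.32, 0.878 and 1.08 CPM in lineage 45 (4.86-fold lower, adjusted p = 0.00162). HLA-DPA1 (2.6-fold) and HLA-DPB1 (2.77-fold) were lower too. CD74, the chain that guides class II molecules, was higher (64.8 ± 12.9 against 41.4 ± 6.83 CPM, 1.56-fold). The other class II genes were not called: of 9 tested, 3 were lower and 1 higher. In class I presentation, which displays cytosolic peptides, 4 of 18 genes were lower and 1 higher. HLA-B was at 92.2, 99.3 and 107 CPM against 130.1, 123 and 141 CPM (1.32-fold lower), HLA-C was 1.33-fold lower, HLA-F 1.91-fold lower and the peptide transporter TAP1 1.3-fold lower. The trimming enzyme ERAP1 was 1.25-fold higher. HLA genes resemble each other and reads may be shared among them. Without both first libraries 1 class II gene and 2 class I genes were lower.

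Interferon-stimulated genes went both ways, 4 higher and 5 lower of 32. MX1, an antiviral GTPase, was at 3.61, 3.78 and 3.86 CPM in lineage 35 and 8.54, 9.19 and 7.98 CPM in lineage 45 (2.28-fold lower, adjusted p = 5.4e-06). MX2 (2.08-fold), ISG15 (1.42-fold), USP18 (1.62-fold) and IFI6 (1.38-fold) were lower. BST2, which tethers budding virus particles, was higher (133 ± 16.3 against 99.1 ± 8.12 CPM, 1.34-fold), as were OAS3 (1.36-fold), DDX60 (1.32-fold) and SAMD9L (1.3-fold). The higher count was 2 without replicate 3 of lineage 35 or without replicate 1 or 2 of lineage 45. Of 23 NF-kappaB targets and cytokines the feedback inhibitor TNFAIP3 was lower (1.67-fold) and CSF3, at under 0.5 CPM in all 6 libraries, was higher (2.5-fold). This list thus had 8.70% called, fewer than the 12.7% of all genes tested. The CSF3 call was lost in 8 alternative fits, among them DESeq2 and those without replicate 2 or 3 of lineage 35 or replicate 1 or 2 of lineage 45, with an adjusted p of up to 0.119. IL6 was at 3.12 ± 0.797 against 3.75 ± 0.931 CPM and was not called.

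Growth factor genes differed at a few ligands and feedback regulators. TGFA, an EGF receptor ligand, was at 91.1, 81.4 and 95.3 CPM in lineage 35 and 60.1, 56.5 and 67 CPM in lineage 45 (1.46-fold, adjusted p = 4.7e-05). EGFR was 1.48-fold higher (369.6 ± 32.3 against 250.4 ± 51.4 CPM), a call lost without the gene filter, without replicate 2 or 3 of lineage 35 and without replicate 1 of lineage 45. NRG2, a ligand of the related ERBB receptors, was 2.12-fold lower. Of 16 feedback genes of the MAPK pathway 3 were higher and none lower (7 and 1 at an unadjusted p under 0.05, 4 and none in DESeq2). These were SPRY1 (56.1 ± 6.1 against 34.9 ± 4.84 CPM, 1.61-fold), DUSP4 (1.34-fold) and SPRY2 (1.21-fold). Without both first libraries 1 was higher. Of 28 immediate early genes KLF4 was higher (1.2-fold) and BTG2 lower (2.43-fold), or 7.14% called, fewer than the 12.7% of all genes tested. The KLF4 call was lost in 12 alternative fits, among them each that left out 1 library other than replicate 3 of lineage 45, with an adjusted p of up to 0.189. FOS was at 30.4 ± 17.1 against 33.9 ± 17.4 CPM.

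TGF-beta family genes also went both ways, 4 higher and 4 lower of 24. INHBB, the subunit of activin B, was at 92.2, 78.9 and 104 CPM in lineage 35 and 26.8, 35.1 and 44.4 CPM in lineage 45 (2.59-fold, adjusted p = 6.2e-06). BMP4 (1.4-fold), TGFBR2 (1.2-fold) and LTBP2 (1.55-fold) were higher. BMP2 was 4.18-fold lower (0.154 ± 0.0704 against 0.659 ± 0.0689 CPM). The BMP targets ID2 (1.42 ± 0.506 against 3.48 ± 0.208 CPM, 2.45-fold) and ID3 (39 ± 2.96 against 53.8 ± 1.34 CPM, 1.38-fold) were lower, as was TGFBI (1.26-fold). Of 18 YAP and TAZ targets only AJUBA was called (1.17-fold higher), a call that each change of scaling or filter ended.

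Matrix and adhesion genes held calls on both sides. Of 23 matrix proteases and inhibitors 5 were higher and 5 lower. Beside MMP1, the hyaluronidase gene HYAL1 (3.25-fold), ADAMTS6 (2.31-fold), ADAMTS1 (1.6-fold) and ADAMTS9 (1.9-fold) were lower. The metalloprotease inhibitors TIMP3 (254, 195 and 247 CPM against 145, 148 and 170.1 CPM, 1.5-fold) and TIMP4 (1.84-fold) were higher, with ADAMTS12 (1.52-fold), ADAM8 (1.45-fold) and ADAMTS15 (1.21-fold). Without both first libraries 1 was higher and 3 lower, and with 1 library left out 3 to 5 were higher and 4 or 5 lower. Of 21 collagens COL6A2 (15 ± 3.79 against 38.9 ± 6.92 CPM, 2.59-fold) and COL12A1 (94.3 ± 24.2 against 224 ± 39.8 CPM, 2.37-fold) were lower and COL8A1 (247 ± 19 against 170.1 ± 13.7 CPM, 1.45-fold) was higher. SPARC, a collagen-binding matrix protein, was at 0.179, 0.258 and 0.288 CPM in lineage 35 and 1.44, 1.17 and 0.849 CPM in lineage 45 (4.71-fold lower). It was 1 of 2 lower genes among 15 of epithelial-mesenchymal transition, with TGFBI, and VIM was the 1 higher. Among 22 integrins and laminins the 4 higher genes included ITGB2 (1.52-fold), LAMA4 (1.4-fold) and ITGA6 (1.3-fold), and the 3 lower ones were LAMB2 (1.57-fold), ITGB3 (1.73-fold) and ITGA5 (1.28-fold). Without replicate 3 of lineage 35, 2 of the 22 were higher.

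Adhesion genes of epithelial cells were called about as often as all genes tested, 12.5% against 12.7%, and those called were higher. CDH1, the E-cadherin gene, was at 0.864, 0.516 and 0.835 CPM in lineage 35 and 0.113, 0.234 and 0.17 CPM in lineage 45 (4.23-fold, adjusted p = 7.6e-04). CDH1 was thus low in both groups. The junction genes F11R (41 ± 4.25 against 26.8 ± 1.93 CPM, 1.53-fold) and LSR (59.8 ± 8.2 against 40.9 ± 0.867 CPM, 1.46-fold) were higher, which makes 3 of 24 and none lower (5 and 2 at an unadjusted p under 0.05, 3 and none in DESeq2). Among 14 cadherins the atypical FAT3 (3.34-fold) was higher, and CELSR2 (1.66-fold) and CDH24 (1.48-fold) were lower. CXCR4, a chemokine receptor listed among stem cell markers, was at 0.0596, 0.43 and 0.144 CPM against 1.44, 1.46 and 1.22 CPM (6.37-fold lower, adjusted p = 0.0011). ALDH1A3, a retinaldehyde dehydrogenase, was 1.42-fold lower. Of 12 stem cell markers tested these 2 were lower and 2 were higher, ITGA6 and KLF4. S100A2 (1.95-fold) and KISS1 (53.4 ± 5.93 against 33.9 ± 1.55 CPM, 1.58-fold), a suppressor of metastasis, were higher. Each was the only call among 10 tested genes of its list, or 10%, against 12.7% of all genes tested.

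Guidance molecules, which steer axons and also migrating tumor cells, held 13 calls among 33 genes, 7 higher and 6 lower. The receptors ROBO1 (9.15, 11.2 and 10.8 CPM against 2.26, 5.85 and 3.31 CPM, 2.73-fold), NRP1 (537 ± 51.6 against 383 ± 17.9 CPM, 1.4-fold) and PLXNA1 (1.38-fold) were higher. UNC5B, a netrin receptor, was 3.72-fold lower (0.348 ± 0.0527 against 1.31 ± 0.189 CPM). Class 3 semaphorins divided: SEMA3A (1.4-fold) and SEMA3E were higher, SEMA3B (16.9 ± 1.52 against 33.8 ± 8.42 CPM, 2.0-fold) and SEMA3F (16.1 ± 0.969 against 29.3 ± 2.22 CPM, 1.82-fold), neighbours on chromosome 3, were lower. EPHB4 (1.22-fold) and SEMA7A (1.22-fold) were higher, and EFNA1 (1.5-fold), PLXNB1 (1.66-fold) and PLXND1 (1.2-fold) lower. ROBO1 also marks isolated lineage 22. Without both first libraries 5 were higher and 3 lower, and with any 1 library left out 4 to 7 were higher and 3 to 5 lower.

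Hypoxia targets were even, 3 higher and 3 lower of 18. ANGPTL4, a lipase inhibitor, was at 36.2, 33.8 and 37 CPM in lineage 35 and 17.8, 17.9 and 22 CPM in lineage 45 (1.86-fold, adjusted p = 2.8e-05). SLC2A1 and VEGFA were higher as given above. The carbonic anhydrase CA12 (1.59-fold), the collagen cross-linker LOX (1.5-fold) and the demethylase KDM3A (1.27-fold) were lower. With 1 library left out the lower count ran from 1, without the first of either lineage, to 4. Of 21 complement and clotting genes the protease inhibitor SERPINE2 (50.5 ± 3.8 against 29.3 ± 3.56 CPM, 1.72-fold) and thrombomodulin THBD (1.26-fold) were higher and none lower (4 and 1 at an unadjusted p under 0.05, 2 and none in DESeq2). In edgeR 9.52% of this list were called, fewer than the 12.7% of all genes tested. The THBD call was lost in 10 alternative fits, among them those without replicate 1 or 3 of lineage 35 or replicate 1 or 2 of lineage 45, with an adjusted p of up to 0.271. No gene of 16 for endoplasmic reticulum stress or of 12 for heat shock was called in edgeR. At an unadjusted p under 0.05 these lists held 2 higher and 1 lower, and 1 higher and 1 lower, and DESeq2 called 1 lower in each. Of 6 metallothionein genes MT1A was lower (1.57-fold). Of 14 phospholipid flippases 1 was called. Of 9 secretory mucosal genes FOXA2 and SPDEF (1.34-fold) were higher and none lower in edgeR, with 1 lower at an unadjusted p under 0.05 and in DESeq2. The nuclear-retained RNA MALAT1 was at 14.3 ± 1.1 against 26.7 ± 14.1 CPM and NEAT1 at 27.4 ± 4.3 against 51.7 ± 39.4 CPM, and neither was called by edgeR, at an unadjusted p under 0.05 or by DESeq2.

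Position on the chromosomes sorted part of these differences. The X chromosome had the largest share of called genes, 220 of 423 tested protein-coding genes or 52.0%, of which 160 were higher and 60 lower in lineage 35. Its median log2 difference was 0.26. Chromosome 7 had a median of 0.19 with 108 higher and 17 lower of 599, and chromosome 4 a median of 0.13 with 111 higher and 12 lower of 481. Together these chromosomes held 481 of the 1851 called genes. Outside X, 771 genes were higher and 853 lower.

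Within chromosomes the differences ran in blocks. In windows of 50 neighbouring genes, 11 of 243 had a median log2 difference of at least 0.25 in either direction. The first window of X (2828788 to 21758163, GRCh38) had a median of -0.70, with 36 of its 50 genes lower and none higher. From 53049091 to 154409168 on X, 5 windows with 250 genes had medians of 0.33 to 0.51, with 143 genes higher and 8 lower. The windows between these lay at -0.08 and -0.05. On chromosome 4, the 150 genes from 108047545 to 176332245 had window medians of 0.33 to 0.49, with 81 genes higher and none lower, and the windows before them lay between -0.06 and 0.05. UGT8, PABPC4L and SPRY1 lie in this block. All 11 windows of chromosome 7 were positive (0.15 to 0.26), and one on chromosome 1 (38862964 to 43363203), which holds CTPS1 and SLC2A1, was at 0.28. The 11 windows held 296 called genes of 550 (53.8%), against 1391 of 12289 elsewhere (11.3%). These windows were chosen by differences in the same contrast, so a higher called share there was fixed by the choice.

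The blocks were chosen by the group difference in these same 6 libraries. Their values in each library are thus a description and no separate support. In the first window of X the median log2 CPM, centred on the 6 libraries, was -0.45, -0.29 and -0.30 in lineage 35 and 0.44, 0.36 and 0.29 in lineage 45. In the long block of X it was 0.27, 0.17 and 0.22 against -0.13, -0.23 and -0.23. In the block of chromosome 4 it was 0.20, 0.20 and 0.27 against -0.16, -0.15 and -0.30. The lineages did not overlap in any of these. Against lineage 22 from co-culture, the first window of X had a median of -0.15 in lineage 35 and 0.61 in lineage 45, and the long block of X 0.64 and 0.18. The chromosome 4 block had medians of 0.37 in lineage 35 and -0.04 in lineage 45 against the same lineage 22 libraries. DNA was not measured here, and the part of copy number or of X inactivation was not tested.

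**Figure D4:**
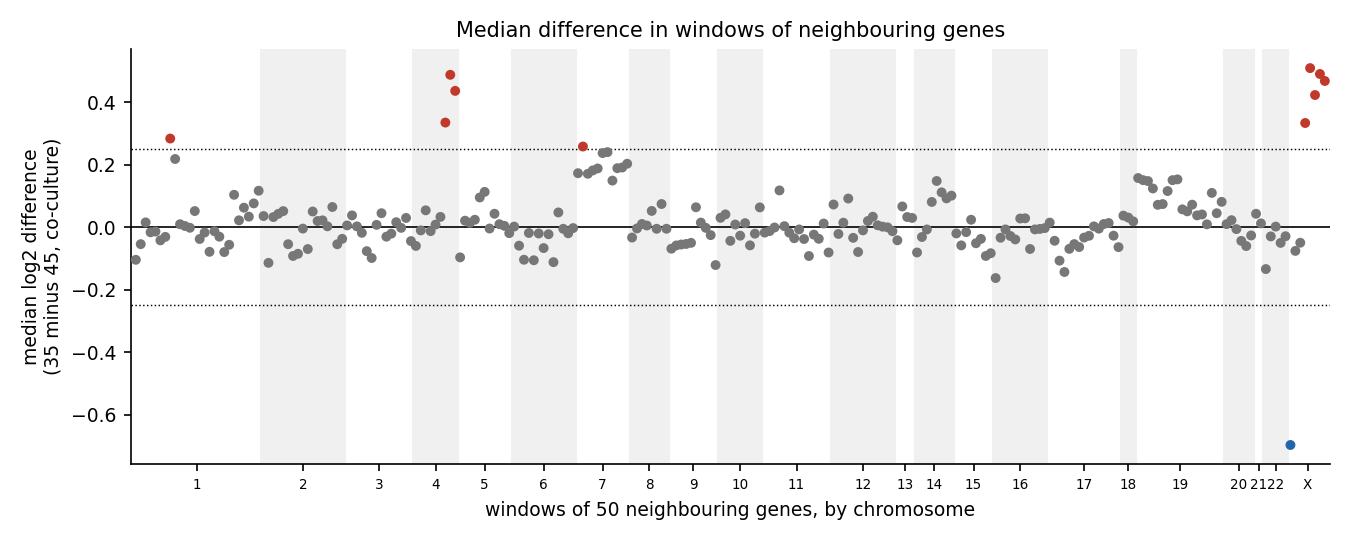
Median log2 difference (lineage 35 minus lineage 45, co-culture) in each of 243 windows of 50 neighbouring tested protein-coding genes, in order along chromosomes 1 to 22 and X. Dotted lines mark 0.25 and -0.25; red and blue points lie beyond them, on chromosomes 1, 4, 7 and X.

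The same lineages differed far more in isolation. There 7553 genes (51.8%) separated the libraries labelled 35 and 45, 3535 (24.3%) higher and 4018 (27.6%) lower in 35, against 1851 from co-culture. The middle 50% of log2 differences spanned -0.40 to 0.32 in isolation and -0.16 to 0.14 from co-culture. Because of the marker result above, the isolated and co-culture libraries labelled 35 may hold different cells, which was not tested. Growth time, sorting and RNA extraction also differ between the conditions and cannot be told apart from them. The 2 contrasts share no library. Across the 14570 genes their log2 differences were nearly unrelated (Pearson r = 0.07, Spearman rho = -0.02), and genes are not independent replicates.

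Direction was kept for about as many genes as it was reversed. Of 1296 genes called in both conditions, 675 (52.1%) differed in the same direction and 621 in opposite directions. In this second group 372 genes were higher in lineage 35 from co-culture and lower in isolation, and 249 the other way round. All 621 were also called in the test of the difference between the 2 contrasts, which called 6158 genes (42.3%) in all. Calls of opposite sign in both contrasts make this nearly certain for the 621, so it is no added support. Of 715 genes at least 2-fold higher in isolated 35, 77 were higher from co-culture, 73 lower and 565 not called. Of 1594 at least 2-fold lower, 227 were lower, 164 higher and 1203 not called. Another 555 genes were called from co-culture and not in isolation.

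Genes that reversed most firmly include a neighbouring pair on chromosome 20. FOXA2, a transcription factor of liver, gut and lung, was at 87.2, 73.9 and 81.6 CPM in lineage 35 and 58.6, 60.6 and 63.7 CPM in lineage 45 from co-culture (1.33-fold higher). In isolation it was at 1.26, 1.44 and 1.65 CPM in lineage 35 and 42.6, 48.6 and 45.1 CPM in lineage 45. The difference thus turned from log2 -4.96 ± 0.11 in isolation to log2 0.41 ± 0.08 from co-culture (difference of the 2 contrasts 5.37 ± 0.14, adjusted p = 1.3e-16). LINC00261, the long non-coding RNA beside it, turned in the same way, at 52.2 ± 3.16 against 34.7 ± 2.25 CPM from co-culture and log2 -5.70 ± 0.14 in isolation. LINC01234 was at 39.8, 31.8 and 30.1 CPM against 13, 14 and 12.6 CPM from co-culture, and at 0.355, 0.332 and 0.467 CPM against 10.2, 9.59 and 10.5 CPM in isolation. MISP, a spindle positioning protein (log2 0.48 ± 0.09 against log2 -4.70 ± 0.12), and TMEM156 (log2 0.50 ± 0.11 against log2 -5.07 ± 0.15) were also higher from co-culture and lower in isolation. AFAP1-AS1 (log2 0.49 ± 0.11 against log2 -4.87 ± 0.14) is antisense to AFAP1, and the strand setting of the counting is not given in the sources used here.

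The opposite turn was seen in TP53I11, LRP3, NCK2, FURIN, COBL and HLA-B. TP53I11, a p53-inducible gene, was at 0.238, 0.888 and 0.835 CPM in lineage 35 and 4.16, 3.74 and 4.1 CPM in lineage 45 from co-culture. In isolation it was at 22.2, 25.2 and 28.6 CPM in lineage 35 and 0.504, 0.405 and 0.376 CPM in lineage 45, so the order of the lineages turned round. FURIN, the protease that matures many secreted precursors, was at 32.4 ± 2.5 against 53 ± 4.93 CPM from co-culture (log2 -0.71 ± 0.08) and differed by log2 1.49 ± 0.08 in isolation. The values for the adaptor NCK2 were log2 -0.60 ± 0.08 and log2 1.89 ± 0.08, and those for the receptor gene LRP3 were log2 -1.30 ± 0.11 and log2 2.99 ± 0.11. COBL, an actin nucleator, was under 1 CPM in all 6 co-culture libraries (log2 -1.16 ± 0.30) and differed by log2 8.40 ± 0.36 in isolation. HLA-B differed by log2 -0.40 ± 0.09 from co-culture and by log2 2.04 ± 0.09 in isolation. The X chromosome block from 53049091 to 154409168 had a median log2 difference of 0.47 from co-culture and -0.45 in isolation. The median of the first X window also changed sign, from -0.70 to 0.16, as did that of chromosome 7, from 0.19 to -0.11. The chromosome 4 block kept its sign, at 0.44 and 0.28, and so did the chromosome 1 window, at 0.28 and 0.59.

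**Figure D5:**
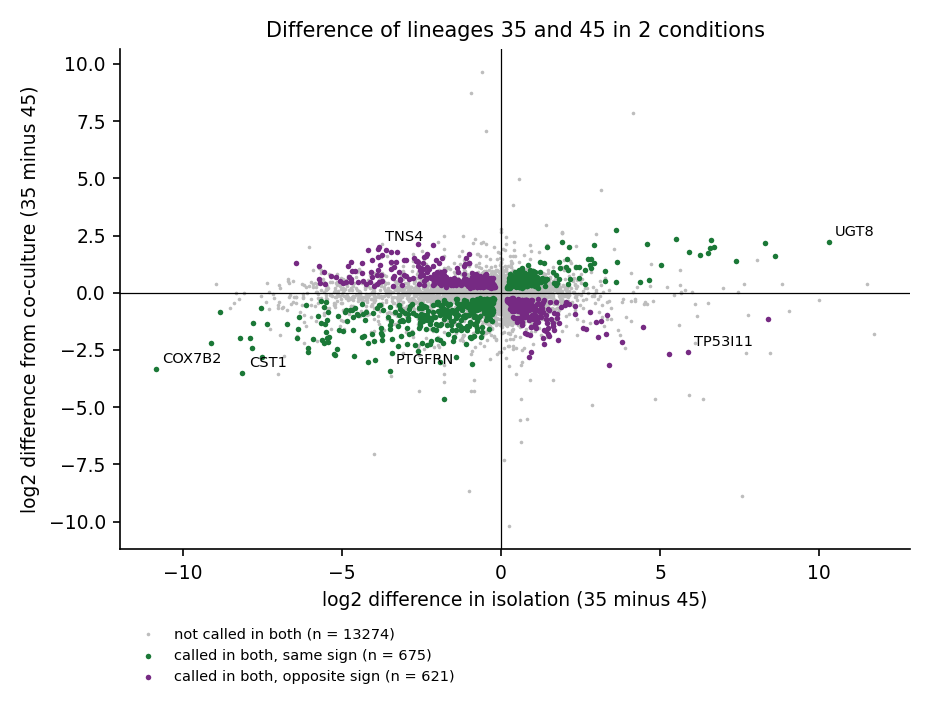
Log2 difference between lineages 35 and 45 from co-culture (vertical) against that in isolation (horizontal) for each of 14570 genes. Green points were called in both with the same sign (675), purple points called in both with opposite signs (621) and grey points not called in both.

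Genes named for the largest differences kept their direction in some cases. UGT8 was higher in lineage 35 in both conditions, at 15.5, 16.7 and 15 CPM in isolated 35 and 0, 0 and 0.025 CPM in isolated 45. MMP1 was lower in both (log2 -6.05 ± 0.30 in isolation), as were IGSF3 (log2 -5.22 ± 0.34), CYFIP2 (log2 -2.61 ± 0.24) and FMOD (log2 -6.05 ± 0.33). TNS4 turned round, from log2 -3.83 ± 0.23 in isolation to log2 1.99 ± 0.20 from co-culture. MYH10 turned the other way, from log2 1.36 ± 0.20 to log2 -2.25 ± 0.21. PHGDH also turned, from log2 -4.05 ± 0.32 to log2 1.44 ± 0.17, and CXCR4 from log2 5.29 ± 0.66 to log2 -2.67 ± 0.50. QPCT, SPN and HCLS1 were not called in isolation (log2 -0.47 ± 0.20, log2 -0.04 ± 0.47 and log2 0.07 ± 0.34).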

How the data were processed

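RNA-seq libraries were made with a stranded mRNA kit and read as 2 x 75 nt pairs, per the labels' protocols. STAR 2.6.1d, Salmon 1.4.0 and the build GRCh38 (hg38) are named in the submitters' processing notes. The authors deposited length-scaled estimated counts per gene, which were rounded to whole numbers here, and no further processing is given in the sources used here. Scaling by transcript length removes differences that arise only from isoform use. All 18 libraries (29.8 to 38.8 M counts) were fitted with edgeR 4.0.16 (R 4.3.3, limma 3.58.1): filterByExpr, TMM scaling, robust quasi-likelihood, 1 coefficient for each of 6 groups, contrast 35 minus 45, and Benjamini-Hochberg adjustment over 14570 genes at 0.05. The biological coefficient of variation was 10.4%. CPM values are given as mean ± SD and log2 differences ± SE, with n = 3 per group. Intervals of single counts are not given. Averaged over genes, replicate spread exceeded counting error. This need not hold for genes with few counts, such as THBS2, with 2 counts in all in lineage 35 from co-culture.

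Gene positions come from GENCODE release 29 (GRCh38) and promoter windows from RefSeq (GRCh38.p14), which matched 12 of the 20 largest differences and 73.2% of tested genes, too few for a comparison of promoter sets. Of 872 list symbols 871 were found, 15 by an older symbol. No column was left without a sample. Genes were named by rule: the 10 largest called differences in each direction at 5 CPM or more without overlap, up to 4 called members of each list by p, up to 6 reversals in each direction and 6 isolation markers; other members of short lists were named after their values were seen, and a few list members are counted but not reported by name here. The comparison, the lists and the rule were chosen with earlier results of these data known. Alternatives were DESeq2 1.42.0, another scaling, filters, a replicate block, subsets of libraries, thinning, a 1.5-fold test and a 16-fold marker threshold. The fit was tested on simulated data.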

Additional observations from a re-analysis of the deposited data

Results flagged for a closer look

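The difference between lineages 35 and 45 was not the same from co-culture and in isolation for 6158 genes, by the test of the difference between the 2 contrasts (edgeR, adjusted p under 0.05). That is 42.3% of all genes tested. Among the genes named for a large difference, a reversal or a marker role, 30 passed this test. The reversals were chosen among genes that passed it. For FOXA2, LINC00261, LINC01234, MISP, TMEM156, AFAP1-AS1, TP53I11, LRP3, NCK2, FURIN, COBL and HLA-B the pass was thus fixed by the choice. The values that follow are log2 differences from co-culture minus log2 differences in isolation. They were positive, so that lineage 35 stood higher relative to lineage 45 from co-culture than in isolation, for COX7B2 by 7.48, LINC00261 by 6.29, LINC01234 by 6.07, FAM133A by 6.02, TNS4 by 5.82, TMEM156 by 5.57, FOXA2 by 5.37, AFAP1-AS1 by 5.36, MISP by 5.17, CST1 by 4.60, FMOD by 3.65, MMP1 by 3.46, PCSK1N by 3.17, QPCT by 2.61, IGSF3 by 2.52, HCLS1 by 1.86, SPN by 1.77 and PABPC4L by 1.45. They were negative for COBL by -9.56, TP53I11 by -8.48, UGT8 by -8.07, FRMD3 by -5.97, LINC01296 by -4.69, LRP3 by -4.28, MYH10 by -3.62, NCK2 by -2.49, NLRP2 by -2.45, HLA-B by -2.44, FURIN by -2.20 and GAL by -1.41. For COX7B2, FAM133A, UGT8 and NLRP2 at least 1 isolated lineage held 3 or fewer counts in all, so the fitted size depends on the constant added to low counts and is no bound. Co-culture libraries were left out 1 at a time in other fits, and isolation libraries were not. Groups of 3 libraries are too small to test single genes for an outlying library. The isolated and co-culture libraries labelled 35 differ in the marker genes of isolated lineage 35, and growth time, sorting and RNA extraction differ between the conditions, so their parts in these values cannot be told apart.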

How the results depend on the processing

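DESeq2 called 943 higher and 1072 lower genes, DESeq2's size factors in edgeR 836 and 984, no gene filter 842 and 829, thinning to the smallest library 873 and 847, and the 6 compared libraries alone 648 and 707, against 936 and 915. The 9 co-culture libraries alone gave 549 higher genes and 53 higher list members. The stricter filter, which kept genes at 5 CPM or more in at least 3 libraries, gave 735 higher and 702 lower genes. Of these 44 and 119 were at least 2-fold, against 126 and 297 in the main fit. This filter takes out genes of low expression, and how many of the lost calls were theirs was not counted. Tested against 1.5-fold, 70 genes were higher and 186 lower, 67 and 172 of them at least 2-fold. The same test called 2665 genes in isolation, 2437 for the difference of contrasts, 89 in both conditions with the same direction and 53 with opposite ones, and 6 higher and 14 lower list members. It left 1 lower marker of isolated 35 and 0 higher markers of isolated 45. Without both first replicates (chosen after seeing the data) 552 genes were higher and 592 lower, 436 were called in both conditions in the same direction and 397 in opposite ones, and 49 list members were higher. Markers of isolated 22 that were lower numbered 3 in the compared libraries alone. At a 16-fold marker threshold 2 of isolated 22, 0 of isolated 35 and 1 of isolated 45 were lower, and 0 of isolated 45 higher. Thinning also left 0 higher markers of isolated 45. Leaving out 1 library gave 613 to 805 higher genes, lowest without replicate 3 of lineage 35, 54 to 80 higher list members, and a median log2 of 0.23 to 0.32 on the X chromosome. No named gene and none of the medians of chromosomes 4, 7 and X changed sign in an alternative fit. Genes called in both conditions numbered 515 with the same direction and 518 with opposite ones under the stricter filter, against 675 and 621. Of 144 named genes, 32 lost their call when some single library was left out.

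A replicate block gave 955 higher and 925 lower genes and ended the call of AJUBA alone among the named genes. Same-numbered libraries of lineages 35 and 45 had deviations that correlated at -0.001, -0.02 and 0.04. These values show no strong shared shift, and they cannot tell whether equal numbers mark a shared culture. At 3 libraries a group, an exact permutation test of a single gene cannot go below p = 0.1, and small differences of genes with few counts were not detectable at this depth.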
